A study of Mus musculus with 14 samples.

Results

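Pkd1, Pkd2, Camk1, Camk1g, Camk2a, Camk2g, Camk4 and Rgn are the calcium sensor and target genes that the study names as expressed more strongly in DIS3L2 knockdown cells. They are 8 of the 50686 genes of the count table, and all 8 were found by symbol among the 16181 protein-coding genes of the CPM table. Since the study picked them from these same libraries for being higher in the knockdown line, the difference between the lines is described here with no test. Only the change over days was tested, with line as a covariate. That covariate removes a constant line difference only. The shDIS3L2 values behind the choice of genes therefore enter this test too, and it is not independent of that choice.

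RNA was sequenced from a mouse ESC line carrying an Osr1-GFP reporter of the renal lineage and stably expressing an shRNA against LacZ (shLacZ, the control) or against Dis3l2 (shDis3l2 in the labels, shDIS3L2 here). Day 0 (d0) cells were undifferentiated ESCs kept in LIF and 2i. Embryoid bodies (EBs), aggregates in which ESCs differentiate spontaneously, were formed from them in hanging drops with serum and without LIF and 2i, and were sampled every 2 days from d2 to d12. There is 1 library per line and day, 14 in all, so no single day's difference can be checked in a replicate, and each line is 1 culture followed over time. In bulk EBs, more cells of a type and more RNA per cell cannot be told apart.

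Calcium ions act as a second messenger by binding sensor proteins. Polycystin-1 (Pkd1) and polycystin-2 (Pkd2), mutated in polycystic kidney disease, form a receptor and channel complex of the primary cilium, and polycystin-2 also sits in the ER membrane. Calcium-loaded calmodulin activates the CaM kinases. CaMKI (Camk1 and Camk1g) and CaMKIV (Camk4) are switched on further by the upstream kinases Camkk1 and Camkk2, CaMKIV phosphorylates CREB in the nucleus, and CaMKII (Camk2a and Camk2g among its genes) assembles into large holoenzymes that hold their activity by autophosphorylation. Regucalcin (Rgn) binds calcium outside the calmodulin system and is best known from liver and kidney.

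Upstream sequences are shown so that the letters before the genes' starts can be compared. They are given for the 4 of the 8 genes with a window usable here in the RefSeq table (GRCm38.p6), and not for Camk2a, Camk2g, Camk4 and Rgn. Each run holds the 250 bases before the RefSeq start, written 5′ to 3′ on the gene's strand. Capitals mark matches, on either strand, to the CRE core TGACG, the full CRE TGACGTCA (which contains the core), the GC box GGGCGG, the CCAAT box CCAAT, the NFAT core GGAAA or the TATA box TATAAA.
Pkd1 (chr17:24549700-24549949, plus strand): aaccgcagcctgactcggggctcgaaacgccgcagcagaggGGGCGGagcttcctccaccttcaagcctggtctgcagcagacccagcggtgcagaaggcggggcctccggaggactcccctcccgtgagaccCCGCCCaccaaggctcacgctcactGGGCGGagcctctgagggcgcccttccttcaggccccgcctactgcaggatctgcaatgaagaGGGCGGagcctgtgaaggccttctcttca
Pkd2 (chr5:104459207-104459456, plus strand): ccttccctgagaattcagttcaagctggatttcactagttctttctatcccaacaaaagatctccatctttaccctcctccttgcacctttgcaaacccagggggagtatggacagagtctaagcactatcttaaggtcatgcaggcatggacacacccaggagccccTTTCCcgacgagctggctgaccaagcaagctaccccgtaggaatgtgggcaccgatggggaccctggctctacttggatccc
Camk1 (chr6:113343923-113344172, minus strand): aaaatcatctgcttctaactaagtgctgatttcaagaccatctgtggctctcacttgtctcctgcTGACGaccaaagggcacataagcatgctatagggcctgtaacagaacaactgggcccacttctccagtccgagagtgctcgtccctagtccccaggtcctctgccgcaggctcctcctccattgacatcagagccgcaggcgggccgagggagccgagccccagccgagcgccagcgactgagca
Camk1g (chr1:193370283-193370532, minus strand): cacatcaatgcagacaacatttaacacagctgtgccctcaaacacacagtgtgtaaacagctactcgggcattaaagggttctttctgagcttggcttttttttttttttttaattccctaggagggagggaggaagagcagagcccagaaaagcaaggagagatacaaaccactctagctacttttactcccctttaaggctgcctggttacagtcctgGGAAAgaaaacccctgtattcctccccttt
The Pkd1 window held 4 GC boxes, beginning 209, 117, 92 and 29 bases before the start, a motif found in 32.7% of the 32851 windows of this length. Pkd2 and Camk1g each held 1 NFAT core, 82 and 30 bases before the start, against 55.6% of all windows. Camk1 held 1 CRE core 185 bases before the start, against 17.8% of all windows. The full CRE (1.55% of windows), the CCAAT box (33.8%) and the TATA box (12.4%) were in none of the 4 windows. No motif was shared by all 4 genes. GC content was 67.2% for Pkd1, 58% for Camk1, 52.8% for Pkd2 and 44.8% for Camk1g, beside a median of 52.4% over all windows. These matches describe letters and not bound sites.

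Reads on genes numbered 7178712 to 39888099 per library. The shLacZ libraries of d4 and d10 were shallow, and shDIS3L2 held 2.88 and 2.56 times as many reads on those days. Dis3l2 was counted at 28.7, 15.8, 22.0, 23.8, 20.2, 19.2 and 19.7 CPM in shLacZ and at 3.93, 4.44, 7.05, 13.1, 19.6, 18.3 and 14.9 CPM in shDIS3L2, from d0 to d12. The libraries labelled shDIS3L2 were therefore clearly low in Dis3l2 at d0 to d6, while the interval of the ratio included 1 at d8 and d10 and lay below 1 at d12 (0.754-fold, 0.609 to 0.934). All libraries of d0 held the pluripotency markers (7 of 7 above 3 counts, summed 3050 CPM in shLacZ and 2159 CPM in shDIS3L2), with Pou5f1 leading.

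At d0 and d2 most of these genes were lower in shDIS3L2, and from d8 all of them were higher. All 8 genes were higher in shDIS3L2 on each of d8, d10 and d12, as were 37.2% of the protein-coding genes compared over those days. The median log2 fold of shDIS3L2 over shLacZ for the genes with a fold was -0.47 at d0, -0.25 at d2 and 0.01 at d4. It was 0.33 on d6 and 0.89 on d8, had its maximum of 1.21 on d10, and stood at 0.79 on d12. The same median over all protein-coding genes compared was -0.32 at d0 and lay between -0.07 and 0.05 afterwards. The d0 values are read against that shift, which TMM scaling brought to -0.06 and DESeq2 size factors to 0.08. Rgn on d6 was the only one of the 8 at least 3-fold higher before d8 (2.73% of all genes compared that day, and 0.600%, 0.114% and 0.361% on d0, d2 and d4). On d8 there was none (5.50%). Camk1, Camk1g and Camk4 made 3 on d10 (8.62%), and Camk1g was the 1 on d12 (8.17%). None of the 8 was at least 3-fold lower on any day, beside 2.36%, 0.144%, 1.69%, 4.27%, 3.77%, 3.17% and 1.42% of all genes from d0 to d12. The counting interval of the fold lay above 1 for 0, 0, 1, 4, 8, 7 and 6 of the genes from d0 to d12 (15.5%, 17.2%, 18.4%, 29.1%, 36.8%, 34.2% and 31.7% of all genes). It lay below 1 for 4, 3, 1, 1, 0, 0 and 0 (61.5%, 30.8%, 22.4%, 29.4%, 33.5%, 33.6% and 24.3%). Since these genes were chosen from this contrast, nothing is read from their counts beside those shares.

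**Figure D1:**
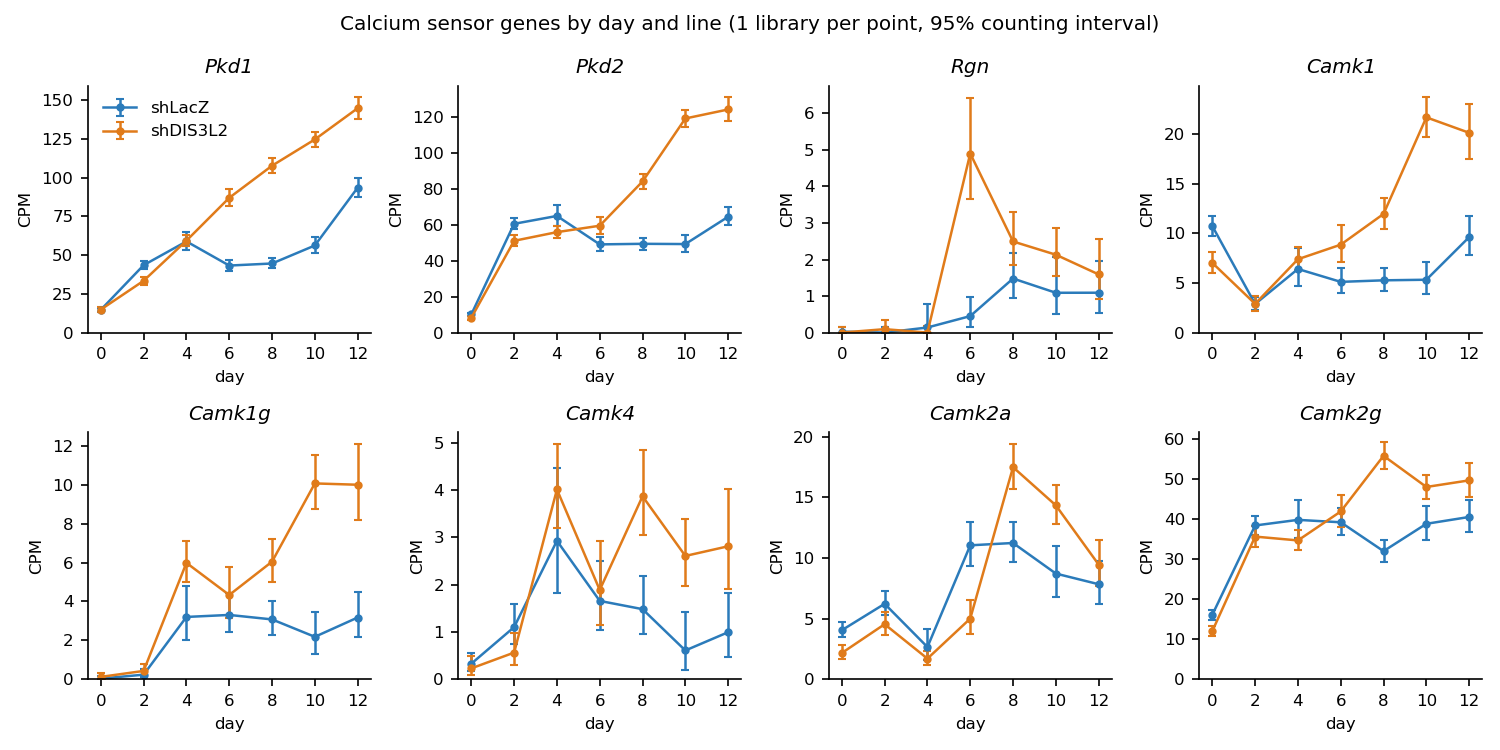
Level (CPM, vertical axis from 0) of each of the 8 genes by day in shLacZ (blue) and shDIS3L2 (orange). Each point is 1 library and bars are 95% counting intervals. Pkd1 in shDIS3L2 goes from 14.8 CPM at d0 to 145 CPM at d12, while Rgn in shDIS3L2 has its highest point, 4.90 CPM, at d6.

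Pkd1 (ENSMUSG00000032855, chr17:24549950-24596514 of GRCm38, plus strand), the large receptor-like partner of the complex, was counted in shLacZ at 14.7, 43.5, 58.8, 43.2, 44.6, 56.2 and 93.4 CPM from d0 to d12. In shDIS3L2 it was counted at 14.8, 33.4, 59.3, 86.9, 108, 125 and 145 CPM. The shDIS3L2 level was higher at each step than at the one before, while shLacZ was lower at d6, d8 and d10 than at d4 and highest at d12. The fold between the lines was 1.01 at d0 (95% interval 0.887 to 1.15) and 1.01 at d4 (0.902 to 1.13), and with TMM scaling the d0 fold was 1.2. The fold of shDIS3L2 over shLacZ was 2.42 at its highest, at d8 (2.22 to 2.63), and 1.55 at d12 (1.43 to 1.68), when shLacZ had come closer. Pkd1 overlaps the oppositely transcribed Tsc2 by 699 bases, and the use of strand in counting is not stated. Tsc2 itself differed little between the lines, with folds of 1.17 (1.09 to 1.25) at d8 and 0.989 (0.909 to 1.08) at d10.

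Pkd2 (ENSMUSG00000034462, chr5:104459450-104505819, plus strand), the channel subunit, was counted in shLacZ at 10.1, 60.5, 64.9, 49.1, 49.4, 49.3 and 64.5 CPM. The shDIS3L2 libraries gave 8.23, 51.1, 55.9, 59.5, 84.1, 119 and 124 CPM. Most of the increase in shLacZ lay between d0 and d2 (5.99-fold, 5.37 to 6.70), and the d12 level was 0.993 times that of d4 (0.880 to 1.12). In shDIS3L2 the first step was of like size (6.20-fold, 5.36 to 7.21), and a further 2.22-fold (2.05 to 2.41) followed from d4 to d12. Pkd2 was lower in shDIS3L2 at d0, d2 and d4 (0.861-fold at d4, 0.773 to 0.961) and higher from d6, with 2.42-fold at d10 (2.18 to 2.69). No annotated gene overlaps it. Per length, the Pkd1 level was between 0.469 and 1.29 times the Pkd2 level over the 14 libraries, lowest in both lines at d2. The pair therefore did not keep 1 ratio: at d6 it was 0.632 in shLacZ and 1.05 in shDIS3L2, and at d12 the order was the other way, 1.04 and 0.836.

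Camk1 (ENSMUSG00000030272, chr6:113334124-113343984, minus strand), the founding CaMKI kinase, was counted in shLacZ at 10.7, 2.88, 6.41, 5.11, 5.27, 5.33 and 9.62 CPM. In shDIS3L2 it was counted at 7.02, 2.90, 7.39, 8.86, 12.0, 21.7 and 20.1 CPM. It is the only one of the 8 genes with a lower level at d2 than at d0 in both lines, 0.268 times in shLacZ (0.208 to 0.343) and 0.412 times in shDIS3L2 (0.304 to 0.552). At d12 shLacZ stood at 0.897 times its d0 level (0.712 to 1.12) and shDIS3L2 at 2.87 times (2.34 to 3.51), or at 0.654 and 1.64 times with TMM scaling. The fold between the lines was 0.655 at d0 (0.548 to 0.779), 1.01 at d2 (0.707 to 1.43) and 4.07 at d10 (2.99 to 5.68). The d10 value rests on 44 reads in shLacZ and 458 in shDIS3L2. Camk1 overlaps Ogg1 on the other strand by 945 bases, and the fold of Ogg1 was 0.922 at d10 (0.717 to 1.19) and 1.01 at d12 (0.766 to 1.32).

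Camk1g (ENSMUSG00000016179, chr1:193346346-193370298, minus strand), the lipid-anchored CaMKI form known best from neurons, was nearly silent in ESCs. In shLacZ it was counted at 0.0251, 0.227, 3.20, 3.31, 3.08, 2.18 and 3.17 CPM. The shDIS3L2 levels were 0.113, 0.421, 5.99, 4.34, 6.05, 10.1 and 10.0 CPM. Both d0 libraries were at or below 3 counts. The step from d2 to d4 was alike in both lines, 14.1-fold in shLacZ (5.58 to 42.3) and 14.2-fold in shDIS3L2 (7.27 to 31.9). The d12 level was 0.991 times that of d4 in shLacZ (0.562 to 1.77) and 1.67 times in shDIS3L2 (1.28 to 2.18). Camk1g was the first of the 8 genes with an interval above 1, at d4 (1.87-fold, 1.19 to 3.06), and it was 4.63-fold higher in shDIS3L2 at d10 (2.86 to 7.96) and 3.16-fold at d12 (2.11 to 4.84). With TMM scaling or DESeq2 size factors the d12 fold lay below 3. An unclassified transcript, Gm37942, overlaps it on the other strand.

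Camk4 (ENSMUSG00000038128, on chromosome 18), the nuclear kinase, was a low gene throughout. In shLacZ it was counted at 0.326, 1.10, 2.93, 1.65, 1.48, 0.605 and 0.992 CPM. The shDIS3L2 libraries gave 0.227, 0.561, 4.01, 1.88, 3.87, 2.60 and 2.81 CPM. Both lines had their highest level at d4, and the d12 level was 0.339 times that of d4 in shLacZ (0.143 to 0.752) and 0.700 times in shDIS3L2 (0.445 to 1.08). The intervals of these ratios overlap. The fold between the lines was 2.61 at d8 (1.64 to 4.29) and 4.30 at d10 (1.74 to 13.8), the latter from 5 reads in shLacZ and 55 in shDIS3L2. An antisense gene, 2310026I22Rik, overlaps Camk4.

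Camk2a (ENSMUSG00000024617, also on chromosome 18), the CaMKII gene of forebrain neurons, was counted in shLacZ at 4.04, 6.22, 2.65, 11.0, 11.2, 8.72 and 7.83 CPM. In shDIS3L2 it was counted at 2.15, 4.53, 1.69, 5.0, 17.5, 14.3 and 9.46 CPM. Both series were lowest at d4. The shLacZ level was 4.17-fold higher at d6 than at d4 (2.58 to 7.13) and was alike at d6 and d8 (1.02-fold, 0.816 to 1.27). In shDIS3L2 the steps were 2.95-fold from d4 to d6 (1.89 to 4.66) and 3.5-fold from d6 to d8 (2.62 to 4.77). The line difference therefore changed sign, from 0.452-fold at d6 (0.324 to 0.623) to 1.56-fold at d8 (1.30 to 1.87). At d12 the interval included 1 (1.21-fold, 0.890 to 1.64).

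Camk2g (ENSMUSG00000021820, chr14:20734875-20794088, minus strand), the broadly expressed CaMKII gene, was counted in shLacZ at 16.1, 38.4, 39.8, 39.2, 32.0, 38.9 and 40.6 CPM. The shDIS3L2 levels were 12.0, 35.7, 34.7, 41.9, 55.9, 48.1 and 49.7 CPM. From d4 to d12 the ratio was 1.02 in shLacZ (0.873 to 1.19) and 1.43 in shDIS3L2 (1.28 to 1.61). The fold between the lines had its maximum at d8, 1.75 (1.57 to 1.94), and was 1.23 at d12 (1.08 to 1.4).

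Rgn (ENSMUSG00000023070, chrX:20549787-20562089, plus strand) was at or below 3 counts in every library of d0, d2 and d4. From d6 to d12 it had 6, 25, 9 and 11 reads in shLacZ, which is 0.451, 1.48, 1.09 and 1.09 CPM. In shDIS3L2 it had 52, 49, 45 and 17 reads, which is 4.90, 2.49, 2.13 and 1.59 CPM. Its line difference was largest on the first day it stood above the floor and smaller afterwards. The fold on d6 was 10.9 (4.67 to 31.0). It was 1.69 on d8 (1.02 to 2.85), 1.96 on d10 (0.944 to 4.55) and 1.46 on d12 (0.645 to 3.45). On d10 and d12 the interval included 1. Within shDIS3L2 the d12 level was 0.325 times that of d6 (0.176 to 0.571). Of the visceral endoderm and hepatocyte markers, 7 of 11 were at least 3-fold lower in shDIS3L2 at d6 (4.27% of all genes). Their sum was 2841 CPM in shLacZ and 562 CPM in shDIS3L2, and Alb was at 0 in both. Kidney markers were not among the lists. The part of any of these tissues in the Rgn result was not tested.

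**Figure D2:**
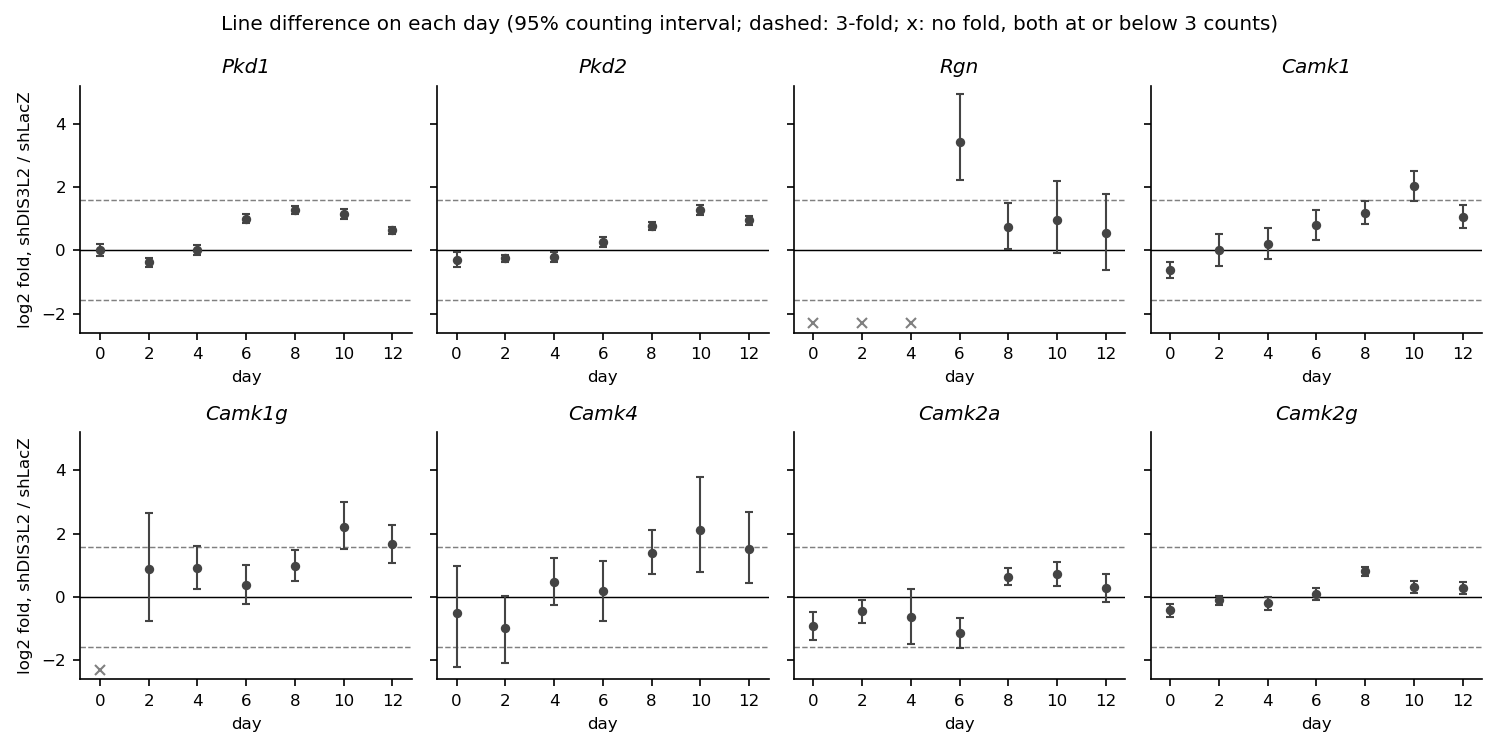
Log2 fold of shDIS3L2 over shLacZ (vertical axis) by day for each gene, with 95% counting intervals from 1 library per line and day. Dashed lines mark 3-fold and a cross at the lower edge marks a day with no fold, where both libraries held at most 3 counts. Points lie above 0 for all 8 genes at d8, d10 and d12, and Camk2a lies below 0 up to d6.

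Within each line, the level at d12 was at least 3-fold that of d0 for 4 of the 8 genes in shLacZ (Pkd1, Pkd2, Camk1g and Rgn; 31.6% of all genes compared) and for 7 in shDIS3L2 (all but Camk1; 43.0%). No gene of the 8 was at least 3-fold lower (12.1% and 10.4% of all genes). The folds were 6.36 for Pkd1 and 6.38 for Pkd2 in shLacZ, and 9.75 and 15.1 in shDIS3L2. Rgn in shDIS3L2 had 0 reads at d0 and was at least 14-fold higher at d12, with the floor of 3 counts at d0. Camk4 in shLacZ was 3.04-fold higher (1.19 to 7.51) but stayed under 1 CPM on both days. The median log2 fold of the 8 genes was 2.14 in shLacZ and 3.46 in shDIS3L2, with Rgn in shDIS3L2 at its bound, beside 0.64 and 1.16 over all genes. The scaling bears on these folds, because both d0 libraries had low TMM factors (0.764 in shLacZ and 0.642 in shDIS3L2, 0.999 to 1.12 elsewhere). With TMM, 5 genes instead of 7 passed in shDIS3L2, since Camk2a was at 2.52-fold and Camk2g at 2.37-fold.

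The level of every one of the 8 genes varied over days beyond the spread of the lines about a constant difference (edgeR quasi-likelihood F test, Benjamini-Hochberg adjusted p under 0.05), as did 84.7% of all genes tested, so the count itself is close to the background. The adjusted p was 5.05e-05 for Camk1g, 0.00129 for Pkd2 and for Rgn, 0.0021 for Pkd1, 0.00329 for Camk2a, 0.0126 for Camk2g, 0.0148 for Camk1 and 0.0248 for Camk4. The days are serial samples of 2 cultures, and these values measure the spread between the lines only. Without d0, Camk1g (0.00202), Rgn (0.00827), Camk2a (0.0105) and Camk1 (0.0204) still passed among the EB days, as did 59.7% of all genes. Pkd1 (0.0549), Camk4 (0.184), Pkd2 (0.333) and Camk2g (0.549) did not. Lines that part over days add to the spread in this fit, so a gene that did not pass need not be steady. Pkd2 in shDIS3L2, for one, was 2.22-fold higher at d12 than at d4 (2.05 to 2.41), against 0.993-fold in shLacZ. The call was lost without 1 library for Camk1 (0.0778 without shDIS3L2 d2), for Camk2g (0.127 without shDIS3L2 d0) and for Camk4 (0.0973 without shDIS3L2 d0, 0.0634 without shLacZ d4 and 0.0559 without shDIS3L2 d4).

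From d0 to d12 in the same edgeR fit, 6 of the 8 genes rose and none fell, beside 40.0% of all genes that rose and 31.2% that fell. The shDIS3L2 values for which the genes were chosen enter this fit, so nothing is read from the count beside those shares. The log2 difference was largest for Camk1g, 5.82 (standard error 0.60, adjusted p = 1.43e-05), and Rgn, 5.36 (1.29, 0.00366). At d0 Camk1g had 1 read in shLacZ and 3 in shDIS3L2, and Rgn had 1 and 0. The size of these 2 differences is therefore uncertain. Pkd2 rose by 2.67 (0.35, 7.19e-05), Pkd1 by 2.34 (0.35, 0.000181), Camk4 by 1.98 (0.68, 0.0228) and Camk2g by 1.05 (0.22, 0.00146). All 6 were higher at d12 in both lines. Camk4 lost its call without shDIS3L2 d0 (adjusted p = 0.136) or without shDIS3L2 d12 (0.193). Camk2a gave 0.90 (0.43, 0.0866) and Camk1 -0.03 (0.46, 0.961), which did not pass. The median of all genes was 0.30 in this fit with TMM and 0.92 with library totals, with which Camk2a passed (1.51, adjusted p = 0.0158), and the sign of Camk1 was not fixed (0.56 with library totals).

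Levels of different genes were compared per length, as RPKM, the CPM divided by the gene's exon length in kilobases. Camk2g had the highest RPKM of the 8 genes in 14 of 14 libraries, from 3.24 in shDIS3L2 at d0 to 15.1 in shDIS3L2 at d8. Pkd2 was second in 10 libraries and Pkd1 the third in 12, and Camk1 was second in both libraries of d0. Camk4 was last in 9 libraries, Rgn in 4 and Camk1g in 1. At d12 in shLacZ the RPKM of Pkd1 (6.59) and Pkd2 (6.34) lay next to each other, and those of Camk1 (1.61), Camk1g (1.15), Camk2a (1.05) and Rgn (0.679) followed. In shDIS3L2 at d12 the order was Camk2g (13.4), Pkd2 (12.2), Pkd1 (10.2), Camk1g (3.63), Camk1 (3.37), Camk2a (1.27), Rgn (0.991) and Camk4 (0.228). Camk1 and Camk1g were neighbors in both lines at d12, in opposite order.

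Within the CaMKII genes the make-up changed between d0 and d2. Camk2b held 51.7% of the summed CaMKII RPKM in shLacZ and 52.8% in shDIS3L2 at d0, and Camk2g held 42.1% and 42.5%. At d2 Camk2g held 73.4% and 80.1%, and at d12 78.2% and 79.7%, with Camk2d at 9.91% and 9.48% and Camk2b at 4.42% and 3.35%. These shares rest on the exon length given for each gene. By reads, Camk2d (653) was above Camk2g (541) in shLacZ at d8, and below it in every other library. Camk2a stayed between 1.96% and 12.2% in all 14 libraries. Among the CaMKI genes, Pnck held 44.6% in shLacZ and 31.5% in shDIS3L2 at d0, and Camk1d 77.5% and 74.0% at d2. The Camk1g share had its maximum at d6 in shLacZ, 40.2%, and at d4 in shDIS3L2, 46.4%. The median share of Camk1g over the days was 30.0% in shLacZ and 40.3% in shDIS3L2.

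**Figure D3:**
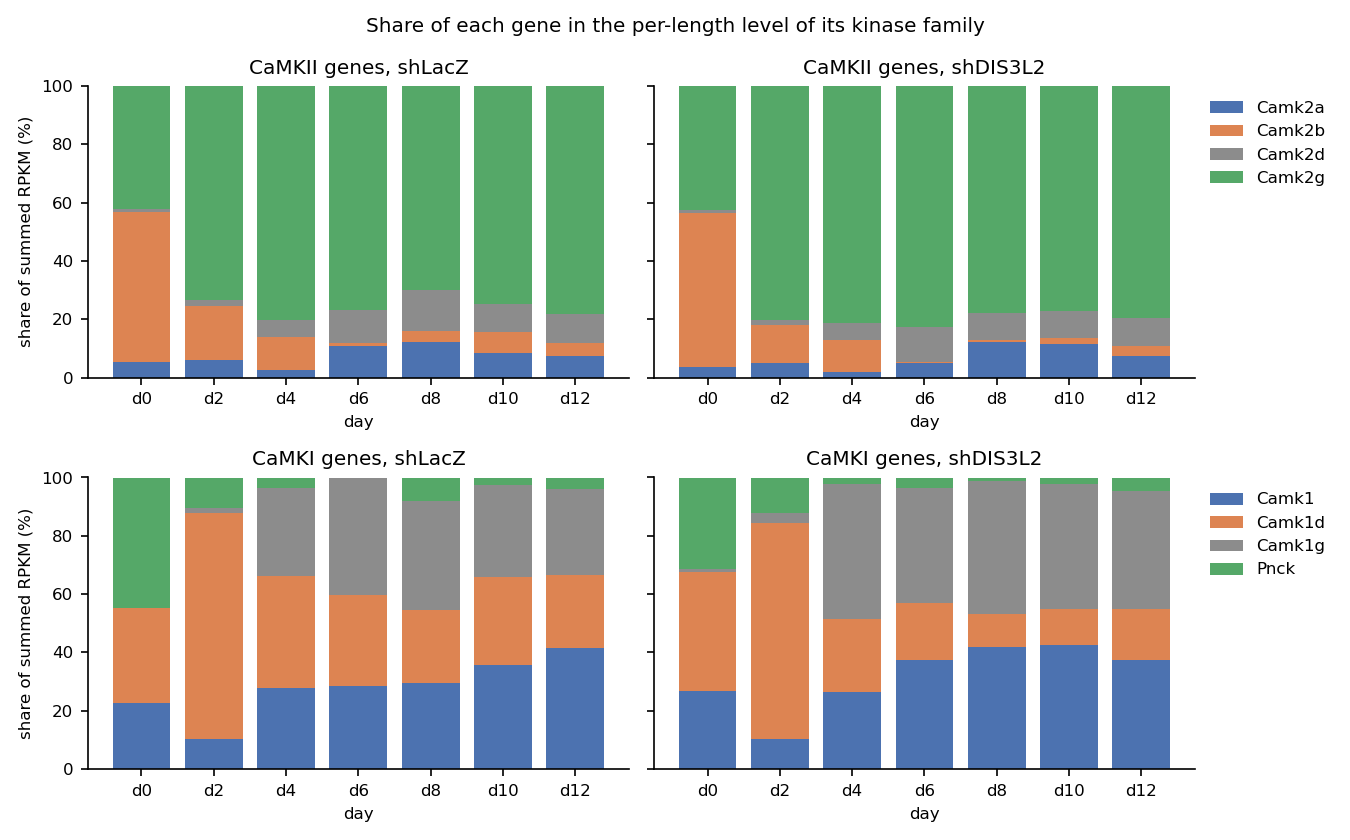
Share of each gene in the summed RPKM (vertical axis, percent) of the CaMKII genes (upper row) and the CaMKI genes (lower row), by day, in shLacZ (left) and shDIS3L2 (right). Each bar is 1 library. Camk2b holds 51.7% and 52.8% at d0 and gives way to Camk2g from d2, and Camk1d holds 77.5% and 74.0% at d2.

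Over the 14 libraries the 8 genes did not follow 1 pattern. Pearson r of log2(CPM + 1) between pairs ran from 0.194 (Camk1 and Camk2g) to 0.968 (Pkd2 and Camk2g), with a median of 0.612 over the 28 pairs. The libraries share their line and day, so these are descriptions. Among 15350 protein-coding genes compared, the most alike to Pkd2 were Scai (r = 0.988), Ankrd16 (0.985) and Pank4 (0.985), and Pank4 (0.984) and Scai (0.980) were also among the 3 most alike to Camk2g, with Heatr5a (0.980). For Pkd1 they were Cdk19 (0.975), Pcdhga7 (0.972) and Zfp618 (0.972), of which Pcdhga7 shares exons with other gamma-protocadherins and is uncertain. For Camk1 they were Nenf (0.961), Map3k10 (0.955) and Tmem8b (0.943), and for Camk1g Fam171a2 (0.983), Cplx2 (0.981) and Lhfp (0.977). Camk2a was least closely matched, by Dazap2 (0.918), Npnt (0.902) and Myh7 (0.897). Camk4 was matched by Gas1 (0.95), Olfm1 (0.935) and Ick (0.933), and Rgn by Kcnab1 (0.962), Naaladl2 (0.942) and Vash1 (0.940). All 3 genes matched to Rgn had their highest level in shDIS3L2 at d6, as Rgn did. They were picked for their likeness to Rgn, so the shared day is not a separate result.

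Of the 7 other CaMK genes, 2 were above 1-fold on d8, 4 on d10 and 5 on d12. None of the 7 other CaMK genes was at least 3-fold higher on any day, Camkv was at least 3-fold lower at d10, and their median log2 fold was -0.43 on d8, 0.19 on d10 and 0.20 on d12. Camkk2, which activates CaMKI and CaMKIV, had folds of 0.952 (0.850 to 1.07) on d8, 0.801 (0.693 to 0.927) on d10 and 1.08 (0.934 to 1.25) on d12. Camk2d, a CaMKII gene of heart and other tissues, gave 1.04 (0.933 to 1.15) on d8, 1.14 (0.991 to 1.32) on d10 and 1.15 (0.989 to 1.34) on d12. Camk1d was 1.63-fold higher in shDIS3L2 on d12 (1.21 to 2.21), and Camkk1, the other upstream kinase, was 1.89-fold higher (1.18 to 3.09). Camk2b was lower in shDIS3L2 at d8 (0.394-fold, 0.253 to 0.603) and d10 (0.350-fold, 0.249 to 0.492). Over days, all 7 passed the edgeR test, as did 84.7% of all genes. From d0 to d12, 1 rose and 4 fell, beside 40.0% and 31.2% of all genes, shares that apply to the lists below as well. The shares of all genes at least 3-fold higher or lower on each day, given above, apply to these lists too. Camk2d rose (log2 difference 3.47, standard error 0.20, adjusted p = 5e-07), and Camk2b (-3.62, 0.38, 1.76e-05) and Camk1d (-1.39, 0.30, 0.00197) were among those that fell.

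Of the 7 other polycystin family genes, none passed 3-fold in the same direction at d10 and d12. Pkd1l1, a partner of Pkd2 in the embryonic node, was at least 3-fold higher at d4, 4.53-fold higher at d8 (2.36 to 9.58) and 0.156 times at d10 (0.0497 to 0.427). Pkd1l2 was at least 3-fold lower at d6 and Pkhd1, which encodes fibrocystin, at d10. From d0 to d12, 3 of the 5 tested rose and 2 fell, and Pkd2l1, a polycystin-2 relative, fell by 7.70 on the log2 scale (standard error 0.47, adjusted p = 6.91e-07), while Pkd2 rose. Among 12 calmodulin and calcineurin genes, only Ppp3cc passed 3-fold, at d8, and the medians were 0.14, 0.24 and 0.22 at d8, d10 and d12. From d0 to d12, 4 of the 10 tested rose and 2 fell.

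Of 5 inhibitors and small calmodulin binders, Pcp4l1, a relative of the calmodulin-binding protein Pcp4, was 6.40-fold (3.78 to 11.6), 12.1-fold (6.67 to 24.5) and 8.97-fold (4.94 to 17.9) higher in shDIS3L2 at d8, d10 and d12. Camk2n1, a CaMKII inhibitor, had a log2 fold of 0.09 at d10 and 0.66 at d12. From d0 to d12, 1 of the 4 tested rose (Pcp4l1, adjusted p = 0.0451) and 2 fell. Among 19 CaMK substrates and calcium-regulated transcription factors, few passed 3-fold on any 1 day: Hdac9 was higher and Nfatc2 lower at d8, Mef2c was higher at d10 and Nfatc4 at d12. Their medians were 0.40, 0.14 and 0.21 at d8, d10 and d12, and Creb1, the main CaMKIV substrate, had log2 folds of 0.37 at d10 and 0.29 at d12. Over time, 12 of 18 tested rose from d0 to d12 and none fell, beside 40.0% and 31.2% of all genes. Creb1 was at 1.80 (standard error 0.15, adjusted p = 4.21e-06) and Nfatc3 at 0.93 (0.13, 0.000102).

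The early genes that calcium entry induces were higher in part. Of the 12, Npas4 was at least 3-fold higher on each of d6 to d12. Egr3 passed at d8 and d12, and Egr2 and Bdnf at d10 and d12. Junb and Egr1 were at least 3-fold lower at d4. Of all genes, 2.73%, 5.50%, 8.62% and 8.17% were at least 3-fold higher from d6 to d12, and 1.69% were lower at d4. The medians of the 12 were 0.58, 0.62 and 0.83 at d8, d10 and d12. Npas4, an activity-induced transcription factor, rests on few reads (1 and 27 at d10, 10.6-fold, 1.74 to 433). Bdnf, a neurotrophin, was 3.91-fold higher on d10 (1.80 to 10.1) and 4.09-fold on d12 (1.95 to 9.61). Egr2 and Bdnf were low as well, at mean levels of 1.34 and 2.27 CPM. From d0 to d12, 6 of 12 rose and 4 fell, beside 40.0% and 31.2% of all genes. Egr2 was at 3.22 (standard error 0.74, adjusted p = 0.0029) and Egr1 at -2.22 (0.65, 0.0111).

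The genes for calcium export across the plasma membrane had the medians nearest to those of the 8 genes, 0.68, 0.97 and 0.82 at d8, d10 and d12. Of the 11, 3 were at least 3-fold higher at d8 and 4 each at d10 and d12, beside 5.50%, 8.62% and 8.17% of all genes. Slc8a1, the cardiac sodium/calcium exchanger, was counted at 2.84, 2.42 and 2.88 CPM in shLacZ and at 15.5, 23.5 and 22.2 CPM in shDIS3L2 on these days, 9.70-fold higher at d10 (6.21 to 16.0). Atp2b4, a plasma membrane calcium pump, was 3.40-fold (3.07 to 3.77), 5.74-fold (5.01 to 6.61) and 3.72-fold (3.24 to 4.30) higher. Slc24a4 was 7.66-fold higher at d10 (4.49 to 14.2) and 4.87-fold at d12 (2.96 to 8.43). Slc24a2 passed 3-fold from d6 to d10 and Slc8a2 at d12, while Slc24a1 was at least 3-fold lower at d0. From d0 to d12, 7 of 10 rose and 2 fell, beside 40.0% and 31.2% of all genes. Other genes shown together with the calcium sensors in the study were taken as a last list. Their medians were -0.41, -0.34 and -0.19 at d8, d10 and d12. Of these 5, none rose and 3 fell from d0 to d12.

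**Figure D4:**
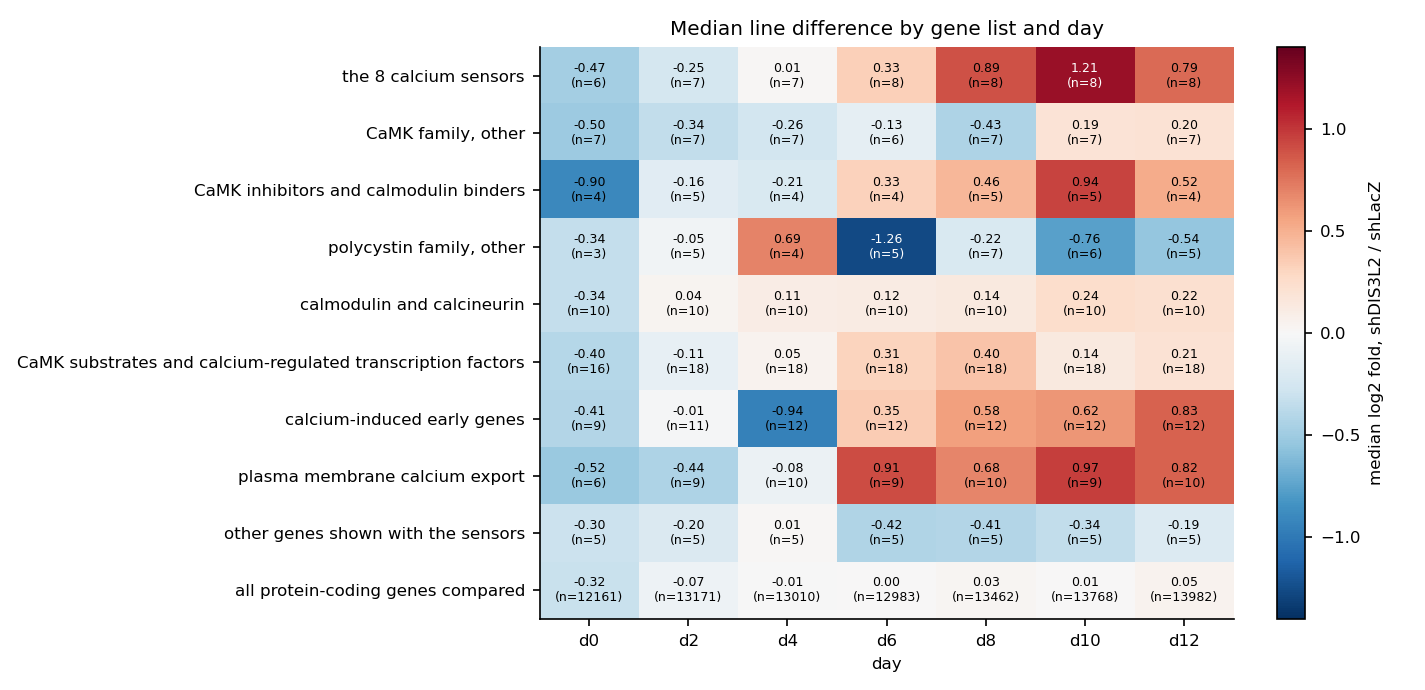
Median log2 fold of shDIS3L2 over shLacZ (color and printed value) for the 8 genes, 8 lists of related genes and all protein-coding genes compared, by day. The number of genes with a fold is in brackets. The 8 genes stand at 1.21 and the export genes at 0.97 at d10, while the other CaMK genes stand at 0.19.

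The cell types held by the EBs, as far as marker genes show them, differed between the lines at d4 and d6 already. They also differed from d8, when all 8 calcium sensors were higher in shDIS3L2. Over all genes, 5.50%, 8.62% and 8.17% were at least 3-fold higher on d8, d10 and d12, and 3.77%, 3.17% and 1.42% lower. Of 10 mesenchyme markers, 7 were at least 3-fold higher in shDIS3L2 on each of d8, d10 and d12, with sums of 1433 to 1923 CPM in shLacZ and 9896 to 16724 CPM in shDIS3L2, and none of the 10 was at 0. At d4, 4 of the 10 were at least 3-fold lower in shDIS3L2, and at d6, 6 were higher. Of 7 cardiomyocyte markers, 3, 4 and 4 were higher (39.6 to 70.4 CPM and 127 to 193 CPM). Visceral endoderm and hepatocyte markers were lower in 7, 6 and 3 of 11, with only Alb higher, at d12 (4403 to 6443 CPM and 1366 to 1764 CPM). At d4 and d6, 4 and 7 of these 11 were at least 3-fold lower, beside 1.69% and 4.27% of all genes. Neural markers, which bear on Camk2a, Camk1g and Camk4 as neuronal kinases, were low in both lines (24.6 to 87.6 CPM and 23.4 to 41.3 CPM), with 1 of 10 at least 3-fold higher and 2 lower at d8 and none higher and 4 and 2 lower at d10 and d12. Sox1 was at 0 in shDIS3L2 at d8 and Neurod1 at d10. Pluripotency markers summed to 428 to 539 CPM and 113 to 368 CPM, blood markers to 7.14 to 791 CPM and 41.3 to 1288 CPM, and endothelial markers to 88.6 to 200.2 CPM and 194 to 391 CPM. Of 7 pluripotency markers, 6 were at least 3-fold lower in shDIS3L2 at d6, 5 at d8, 1 at d10 and none at d12. At d12, 5 of 6 blood markers were at least 3-fold higher in shDIS3L2. The part of these cell types in the line differences of the 8 genes was not tested.

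**Figure D5:**
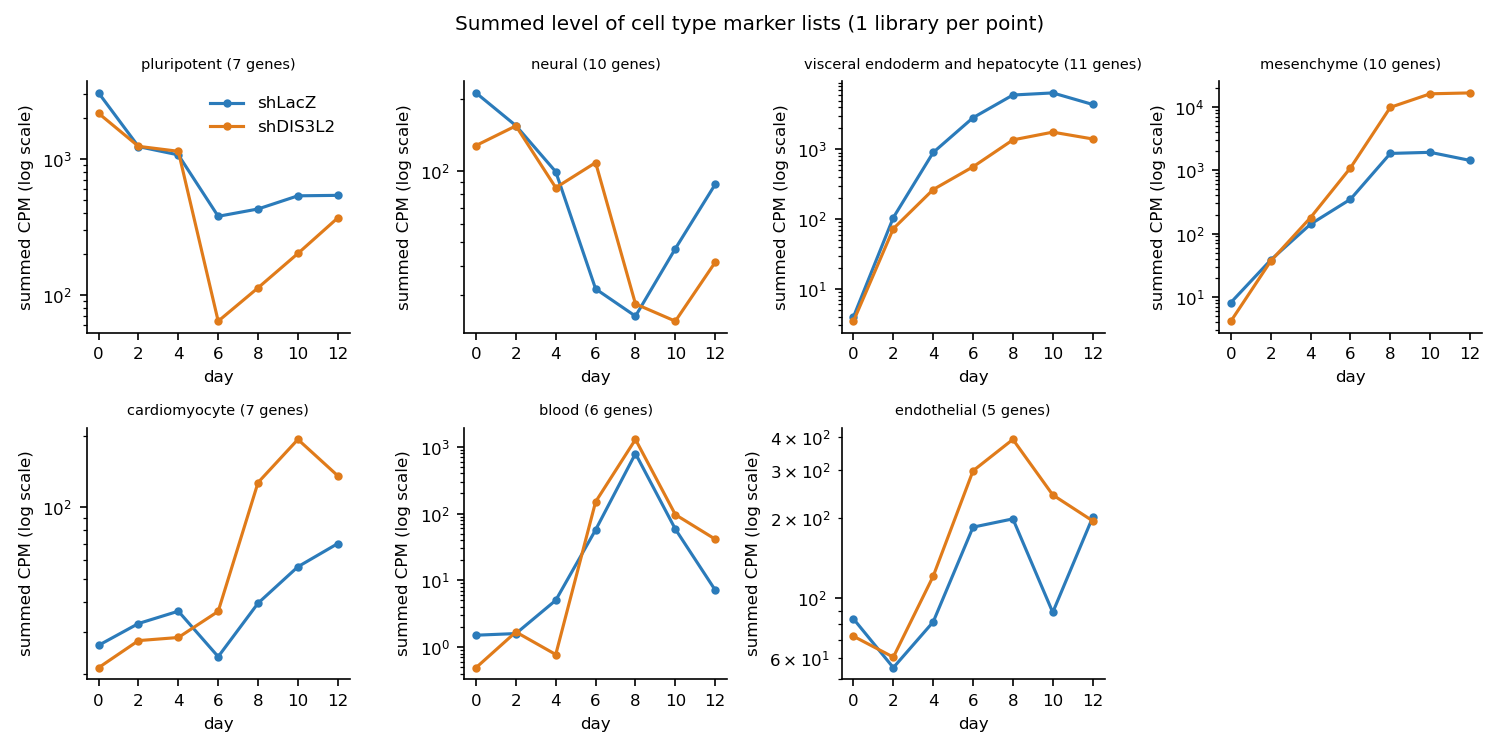
Summed CPM (log scale) of 7 lists of cell type markers by day in shLacZ (blue) and shDIS3L2 (orange), 1 library per point. Mesenchyme markers reach 16724 CPM in shDIS3L2 at d12 against 1433 CPM in shLacZ, and visceral endoderm and hepatocyte markers sum lower in shDIS3L2 on every day.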

How the data were processed

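RNA of mouse ESCs and EBs was measured in 14 libraries, 1 for each of 2 lines on each of 7 days. The authors aligned reads to GRCm38 with Subread and used featureCounts for gene counts, which were deposited without normalization. Whether counting used strand is not given in the sources used here. A second deposited table gives CPM computed in edgeR by the authors. Each value equals the count plus 0.25 over the total of 16181 listed protein-coding genes (largest relative difference 5.01e-15). This table served to choose the genes. The knockdown columns are headed shm5 in both tables. They were mapped to shDIS3L2 because the other column of each day names the control line and the study's supplement heads the same columns with the knockdown.

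CPM was recomputed over library totals, and RPKM from it with the gene length in the count table. A floor of 3 counts equals 0.0752 to 0.418 CPM, and no fold was taken where both libraries were at or below it. Folds carry exact (Clopper-Pearson) 95% intervals. These cover counting error alone, because amplified reads carry no molecular identifiers. A gene was called at a fold of at least 3 with at least 1 CPM in 1 of the 2 libraries, among 21939 protein-coding genes.

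The day effect and d12 minus d0 were tested by the quasi-likelihood F test of edgeR (version 4.0.16, R version 4.3.3) with line as covariate, TMM, filterByExpr by day and Benjamini-Hochberg adjustment over 20050 genes, at an adjusted p under 0.05. Standard errors were derived from the F statistic. Tested on simulated data with 200 genes changed 4-fold, the day effect recovered 199 with 8 other calls and d12 minus d0 recovered 185 with 5 other calls, over 18960 genes, and DESeq2 (version 1.42.0) recovered 193 with 50 other calls over 23560 genes. The simulated lines had the same level on each day and a single dispersion. It therefore does not show how the test behaves where the lines part over days. DESeq2, other scalings and filters, and fits without 1 library or without d0 were the alternatives. Python (3.11.15) was used with pandas (2.3.3), numpy (2.4.6), scipy (1.17.1) and matplotlib (3.10.9).

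The 8 genes, the 8 pathway lists and the 7 marker lists were chosen with earlier results of these data known. Named are all 8 genes, the 3 genes of highest Pearson r to each, and up to 4 genes per pathway list, first those called in 1 direction at d10 and d12 and then those of highest mean CPM. Some genes that this rule names are not reported here. Other genes past 3-fold, Egr1 and Camkk1 are named after their values were seen. Promoters are from RefSeq (GRCm38.p6).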

Additional observations from a re-analysis of the deposited data

Results flagged for a closer look

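The fold of Camk1 from d0 to d12 lay below 1 in shLacZ and above 1 in shDIS3L2. With library totals, only the shDIS3L2 interval excluded 1. In shLacZ the fold was 0.897 (95% counting interval 0.712 to 1.12, which includes 1), from 10.7 to 9.62 CPM, and in shDIS3L2 it was 2.87 (2.34 to 3.51), from 7.02 to 20.1 CPM. With TMM scaling the folds were 0.654 and 1.64. The difference between the lines was not tested, as there is 1 library per line and day.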

How the results depend on the processing

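All 8 genes were higher in shDIS3L2 on each of d8, d10 and d12 with TMM scaling, with DESeq2 size factors and with the totals over listed coding genes, and the order by RPKM was the same by TPM in 14 of 14 libraries. The number at least 3-fold higher moved with the settings: at d12 it was 0 with TMM and 0 with DESeq2 size factors, and at d6 it was 0 with a minimum of 5 CPM. With a fold of at least 2, d6 gave 2 genes, d8 gave 3, d10 gave 5 and d12 gave 3, and 1 gene was lower on d6. The shares of all genes at 2-fold are not given here, so nothing about the 8 genes is read from these counts. Without d0, 4 of the 8 genes and 11268 of all genes passed the day effect. Leaving out 1 library at a time, 6 to 8 of the 8 genes and 16048 to 17222 of all genes passed it, and 5 to 6 of the 8 genes and 12109 to 14542 of all genes passed d12 minus d0. DESeq2 gave 8 of the 8 genes for the day effect and 6 for d12 minus d0, and library totals 8 and 7. Of all genes, 14060 of 22660 passed d12 minus d0 with DESeq2 and 14540 of 20050 with library totals. The shares of all genes for the day effect at these settings are not given here. Nothing about the 8 genes is read from their counts. The d12 minus d0 value of Camk1 was 0.56 with library totals and ran from -0.56 to 0.66 without 1 library, with 0.66 without shLacZ d0, 0.02 without shLacZ d10, 0.03 without shDIS3L2 d10 and 0.15 without shLacZ d12. The cause of these moves was not tested. The genes of like pattern depended on the measure: with Spearman rho none of the 3 genes was shared for Pkd1, Pkd2, Camk2g, Camk4 and Rgn. The days were compared within the lines, with line as a term of the fit, and a single day's line difference has no test. Rgn and Camk4, with 5 to 25 reads in shLacZ from d6 to d12, have the fewest reads of the 8 genes.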
